A study of Homo sapiens with 6 samples.

Results

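The interferon-stimulated and double-stranded RNA sensing genes described here are 56 gene symbols out of the 56638 in the count tables, chosen by name for their place in the innate response to RNA. The 56 span the cytoplasmic and endosomal sensors, the factors below them, interferon beta and its receptor, and the antiviral effectors that interferon switches on. HCT116 cells, a human colorectal carcinoma line, were compared as 3 wild-type samples (WT) and 3 samples with METTL3 knocked out by CRISPR/Cas9 (METTL3-KO), all grown in McCoy's 5a medium with fetal bovine serum at passages 16 to 19 and given no interferon, virus or drug according to the labels. METTL3 is the catalytic subunit of the complex that writes N6-methyladenosine (m6A) into messenger RNA. The study's methods describe the knockout as a monoclonal line made with lentiviral CRISPR and puromycin selection, and in such a line an effect of METTL3 loss cannot be told apart from a property of the clone. The deposited tables of the 2 groups are named NC and SiM3, however, which leaves unsettled whether the samples labelled METTL3-KO are that line or cells with METTL3 knocked down by small interfering RNA. METTL3-KO is used here as the name on the labels, which name no sample as transfected, and an effect of transfection could not be compared.

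Double-stranded RNA in the cytoplasm is detected by the helicases RIG-I (DDX58) and MDA5 (IFIH1). Both signal through MAVS to the kinases TBK1 and IKKε and the transcription factors IRF3 and IRF7, and so to transcription of interferon beta. Interferon binds the receptor pair IFNAR1 and IFNAR2, whose kinases JAK1 and TYK2 act on STAT proteins, STAT2 among them. STAT2 joins IRF9 in a complex that binds the interferon-stimulated response element in front of effector genes, and several of the sensors and factors are themselves induced this way. Methylation and editing of RNA by the cell's own enzymes are known as ways in which self RNA is kept from these sensors.

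The response element is shown first because many of these genes hold it, whichever way they moved. Its letters, taken as GAAA, any 2 bases and GAAA again, were searched on both strands of RefSeq promoter windows of 300 bases around annotated starts (250 before, 50 after; RefSeq build GRCh38.p14), overlapping matches counted. A window was found for 44 of the 56 genes, and 26 of the 44 (59.1%) held the letters, against 1195 of 27305 genes with a window in all (4.38%). The sequences below run 5′ to 3′ on the strand of the gene, the capitals mark the matching letters (or their reverse complement, with TTTC in place of GAAA), and the coordinates come from an exact match of the sequence to GRCh37. The 1st pair belongs to genes that fell in METTL3-KO cells, the next 5 to genes that rose, and the last 3 to genes that did not pass the test. Only 1 match is shown for each gene. The windows of IFITM1, IFITM3, TRIM21, OAS3 and ISG15 held 2 matches each, and those of IFIH1 and HERC5 held 3 each.
IFITM1, chr11:314024-314053, plus strand: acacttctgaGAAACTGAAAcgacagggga
IFITM3, chr11:320876-320905, minus strand: aaactgttgaGAAACCGAAActactgggga
IFIH1, chr2:163175196-163175225, minus strand: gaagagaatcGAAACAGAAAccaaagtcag
ISG20, chr15:89182168-89182197, plus strand: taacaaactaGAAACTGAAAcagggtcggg
HERC5, chr4:89378186-89378215, plus strand: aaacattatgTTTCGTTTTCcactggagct
SAMD9, chr7:92747409-92747438, minus strand: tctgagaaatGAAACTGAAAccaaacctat
TRIM21, chr11:4414896-4414925, minus strand: cttctgagcgGAAACTGAAAgtgaaatagg
OAS3, chr12:113376257-113376286, plus strand: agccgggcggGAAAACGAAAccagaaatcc
ISG15, chr1:948760-948789, plus strand: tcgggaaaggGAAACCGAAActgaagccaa
DTX3L, chr3:122283169-122283198, plus strand: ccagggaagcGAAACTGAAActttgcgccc

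In the GENCODE annotation of GRCh37 the matches of IFIH1, HERC5 and SAMD9 lie upstream of the gene, those of IFITM3 and ISG15 within introns of longer transcripts of the same gene, and those of IFITM1, ISG20, TRIM21, OAS3 and DTX3L in exons of at least 1 transcript of the gene. The DTX3L match is also the match of PARP9, which is transcribed the other way from the same spot, and it falls in a PARP9 intron. Among the matches shown, the capitals of IFITM1, which fell, are the same as those of ISG20, SAMD9 and TRIM21, which rose. Those of IFITM3, which fell, are the same as those of ISG15, which did not pass the test. The matches not shown of IFITM1, IFITM3, TRIM21 and ISG15 have other letters in the middle. The letters were present in 5 of the 8 genes that rose and have a window (62.5%), in 2 of the 2 that fell (100%) and in 19 of the 33 that were tested and not called (57.6%). The match is a description of the sequence, not evidence of binding. No window was found for DHX58, IRF3, IRF7, IFNAR2, OAS2, OASL, IFIT2, IFITM2, MX2, UBA7, USP18 and TRIM22.

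Between 20936091 and 30142144 counts per sample fell on genes. METTL3 had 841, 682 and 623 counts in WT and 219, 169 and 162 in METTL3-KO samples, every METTL3-KO sample below every WT sample, with a log2 fold change of -2.04 (SE 0.0906). The third replicate of each group stood apart from the other two, in opposite directions along transcript length: deviations from the group mean correlated across genes with log2 transcript length at 0.635 in WT replicate 3 and -0.574 in METTL3-KO replicate 3. For several genes whose call or direction changed when those replicates were left out, that value is given too. Of the 8 epithelial markers, EPCAM stood at 476 to 560 CPM (counts scaled to a library of 1e+06) over the 6 samples, whereas CDX1 (2.34 to 4.42 CPM) and CDX2 (5.49 to 8.85 CPM) were low, and KRT8, KRT19, CDH1 and VIL1 were higher in METTL3-KO cells; the part of this in the results was not tested. Without the third replicates EPCAM and CDX2 were called lower by edgeR. Of the blood, fibroblast and endothelial markers, PTPRC, CD3E, COL1A2, DCN and PECAM1 were at 0 to 2 counts in every sample, whereas LYZ stood at 665 to 1045 CPM. No label says that the replicates are separate cultures, so the p-values measure the spread between these samples.

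Levels are in CPM after TMM scaling of the library sizes. Differences are log2 fold changes of METTL3-KO minus WT with their standard error (SE). A gene is called when its adjusted p is under 0.05 in the quasi-likelihood test of edgeR, adjusted by Benjamini-Hochberg over all 22452 genes tested, and all adjusted p-values come from that fit unless another is named. In bulk RNA, fewer cells expressing a gene and less RNA per cell cannot be told apart. Of the 55 genes tested, 10 rose in METTL3-KO cells (18.2%) and 5 fell (9.09%). Among all genes tested, 13.3% rose and 13.2% fell, so the share of interferon and sensor genes called was near that of the transcriptome. The 40 others comprised 27 with a fold change above 0 and 13 below. The median log2 fold change was 0.18, beside -0.02 over all genes tested, and the median of the 55 was 0.08 without the third replicates, 0.10 without METTL3-KO replicate 2 alone and, over 52 genes, 0.12 with the filterByExpr filter.

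The genes that rose were IFIH1, OAS1, OAS2, IFIT2, ISG20, HERC5, HERC6, TRIM21, SAMD9 and SP110, and those that fell were IFNAR2, IFITM1, IFITM2, IFITM3 and UBA7. In 13 genes all METTL3-KO samples lay above all WT samples, and in 10 all lay below, against 20.2% and 20.7% of all genes tested. Without the third replicates 18 genes rose and 9 fell, beside 21.4% and 22.7% of all genes. The summed level of the 56 genes was 2923, 3064 and 2894 CPM in WT and 2972, 3058 and 3030 CPM in METTL3-KO samples, so the groups overlapped. LGALS3BP, a secreted glycoprotein, made up much of each sum.

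**Figure D1:**
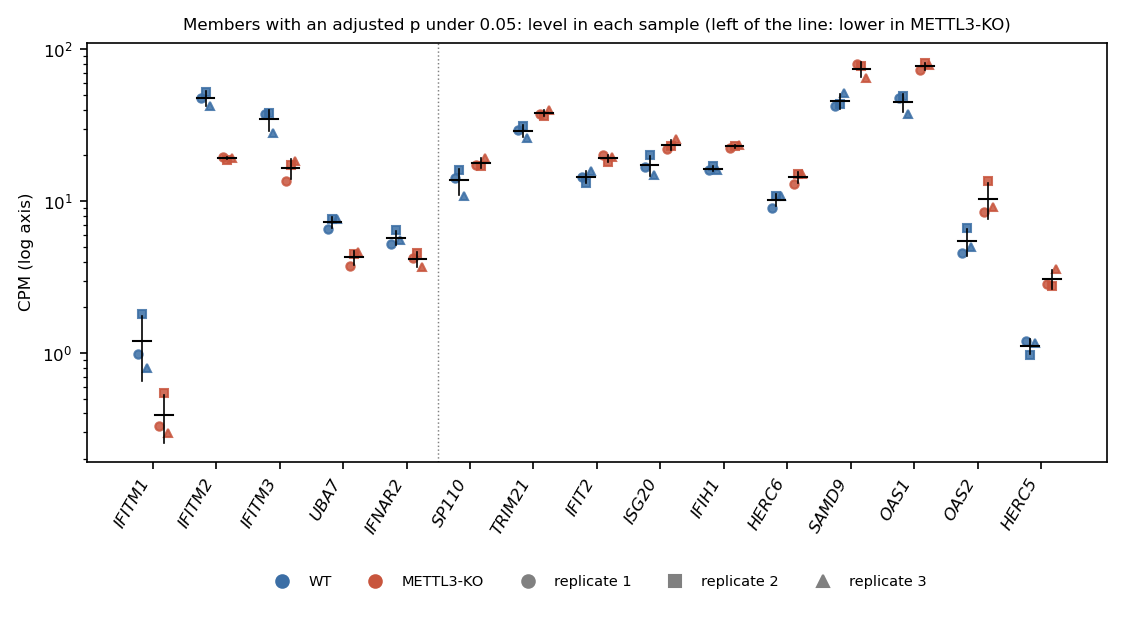
Level in each sample, in CPM on a log axis, of the 15 genes with an adjusted p under 0.05. Points are samples (blue WT, red METTL3-KO, shape by replicate), horizontal lines are group means and vertical lines the SD (n = 3). The 5 genes left of the dotted line were lower and the 10 to its right higher in METTL3-KO, with no overlap between groups in any of the 15.

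The genes were mostly expressed, although the labels name no inducing treatment. Whether the WT cells had received a control small RNA is unsettled, as said above, so these levels cannot be called uninduced. In WT cells 7 of the 56 had a mean of at least 100 CPM, 27 lay from 10 to under 100, 15 from 1 to under 10 and 7 under 1. Per kilobase of exon, the highest WT levels were those of LGALS3BP (245 CPM per kb), BST2 (95.9), ISG15 (79.7), IRF3 (50.3) and IFITM2 (29.6). This order depends on the length used: per kilobase of the canonical transcript it was LGALS3BP (381 CPM per kb), IRF3 (119.5), ISG15 (108), BST2 (105.5) and IFI27 (62.8), with IFITM3 at 56.7 and IFITM2 at 47.3. BST2 encodes tetherin, which holds budding virus at the cell surface, and ISG15 is a ubiquitin-like modifier. At the other end stood IFNB1, the ligand itself, with 0, 1 and 0 counts in WT and 2, 0 and 0 in METTL3-KO samples. IFNB1 was under the count minimum and was not tested. At this depth 3 counts correspond to 0.0995 to 0.141 CPM, so a lower level of interferon beta RNA was not detectable.

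Among the sensors, only IFIH1 passed the test. IFIH1 (MDA5, the sensor of long double-stranded RNA) was measured at 16.1, 17.2 and 15.9 CPM in WT and 22.4, 23.1 and 23.4 CPM in METTL3-KO samples. The METTL3-KO samples all lay above the WT samples and each group was tight. IFIH1 rose by 0.49 in log2 terms (SE 0.0836, adjusted p = 0.0011), and the call held in all 14 alternative fits.

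DDX58 (RIG-I, which recognises 5′-triphosphate RNA) was at 18.1, 18.0 and 21.1 CPM in WT and 19.8, 19.8 and 19.0 CPM in METTL3-KO samples. The groups overlapped, with a log2 fold change of 0.03 (SE 0.0927) and an adjusted p of 0.827 in edgeR's quasi-likelihood test. In the GENCODE annotation used here for positions, a further gene on the same strand covers 43.2% of the DDX58 exon length. The counts were made with the authors' Ensembl annotation, and whether that one held the further gene was not checked. DHX58 (LGP2, the regulatory relative of both helicases) was at 0.18 (SE 0.108), with every METTL3-KO sample above every WT sample but an adjusted p of 0.262 in the same test. TLR3, the endosomal receptor for double-stranded RNA, was at 4.73, 4.16 and 5.58 CPM in WT and 5.47, 6.78 and 6.42 CPM in METTL3-KO samples. Its groups overlapped by 1 WT sample, the third, with an adjusted p of 0.0873 by edgeR, and it was called higher without the third replicates (0.44, adjusted p = 0.0135).

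MAVS, the mitochondrial adaptor shared by both helicases, was at 50.5, 47.9 and 88.5 CPM in WT and 70.3, 70.1 and 50.0 CPM in METTL3-KO samples. The third replicates differed from the other samples of their groups: the highest value was WT replicate 3, and METTL3-KO replicate 3 sat with the lower WT samples. The log2 fold change over all samples was 0.03 (SE 0.205). Without the third replicates it was 0.51 (adjusted p = 1.89e-11 by edgeR's quasi-likelihood test), and with all samples corrected for transcript length and GC content it was -0.01 (adjusted p = 0.957). MAVS has a transcript of 11.7 kb, one of the longest among the 56. The part of the length trend in this difference was not tested beyond these values.

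None of the 4 transcription factors passed the test with all samples uncorrected, and 3 of them were called lower in some alternative fit. IRF3, which is present in most cells and activated by phosphorylation, was at 202, 206 and 165 CPM in WT and 170, 166 and 196 CPM in METTL3-KO samples, again with the third replicates crossing over. On the opposite strand BCL2L12 overlaps 19.4% of the IRF3 exon length, and reads of both genes there cannot be told apart without strand. IRF3 stood at -0.10 (SE 0.0972, adjusted p = 0.471) with all samples and at -0.28 (adjusted p = 1.05e-07) without the third replicates, both by edgeR. IRF7, the inducible partner of IRF3, stood at 0.07 (SE 0.111) and turned to -0.12 without them. STAT2 and IRF9, which belong to the complex that binds the sequences above, both had every METTL3-KO sample below every WT sample. IRF9 was at 5.17, 4.73 and 4.64 CPM in WT and 3.55, 4.23 and 3.36 CPM in METTL3-KO samples, which gives -0.39 on the log2 scale (SE 0.141) and an adjusted p of 0.0594 by edgeR. STAT2 differed by less, at -0.15 (SE 0.0697, adjusted p = 0.146). After correction for length and GC content IRF9 (-0.43, adjusted p = 0.0324) and STAT2 (-0.19, adjusted p = 0.0195) were both called lower by edgeR, and IRF9 was also called lower without the third replicates (-0.37, adjusted p = 0.049).

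Both receptor chains were measured lower, and 1 of them passed the test. IFNAR2, the chain with high affinity for the ligand, was at 5.21, 6.41 and 5.58 CPM in WT and 4.25, 4.55 and 3.66 CPM in METTL3-KO samples. The groups did not overlap, and IFNAR2 fell by 0.46 in log2 terms (SE 0.141, adjusted p = 0.0293 by edgeR). DESeq2 gave an adjusted p of 0.0556, and the call held in only 2 of the 6 fits that each left out 1 sample. IFNAR1, the other chain, was at 31.5, 32.9 and 33.9 CPM in WT and 30.7, 29.6 and 28.9 CPM in METTL3-KO samples, -0.14 (SE 0.0773, adjusted p = 0.215). Part of the IFNAR2 exons is shared with a readthrough gene that runs into IL10RB.

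The proteins that bind double-stranded RNA and act on it divided within 1 gene family. OAS enzymes make 2′-5′ oligoadenylates, a signal for RNA decay, and OAS1, OAS3 and OAS2 lie side by side over 106 kb of chromosome 12 (113343661 to 113449528, GRCh37). OAS1 was at 47.4, 49.1 and 37.7 CPM in WT and 72.8, 81.0 and 78.9 CPM in METTL3-KO samples. OAS2 was at 4.59, 6.68 and 5.02 CPM in WT and 8.49, 13.6 and 9.10 CPM in METTL3-KO samples. Neither gene's groups overlapped, and both rose: OAS1 by 0.79 (SE 0.100, adjusted p = 1.41e-04) and OAS2 by 0.93 (SE 0.193, adjusted p = 0.00358) on the log2 scale in edgeR's test.

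OAS3, between them on the map, was at 89.1, 98.2 and 102 CPM in WT and 86.7, 92.2 and 70.6 CPM in METTL3-KO samples. Its groups overlapped, it differed by -0.21 in log2 terms (SE 0.0999, adjusted p = 0.143 by edgeR), and after correction for length and GC content it was called lower (-0.27, adjusted p = 0.0099). OASL, the catalytically inactive relative on another part of the chromosome, was at 0.25 (SE 0.113, adjusted p = 0.13). After the same correction OASL was called higher by edgeR.

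EIF2AK2 (PKR, the kinase that halts translation on double-stranded RNA) was at 83.7, 92.3 and 115 CPM in WT and 88.1, 92.8 and 71.6 CPM in METTL3-KO samples. ADAR, which edits adenosine in double-stranded RNA and is present in resting cells, was at 278, 288 and 340 CPM in WT and 299, 291 and 256 CPM in METTL3-KO samples. Both were highest in WT replicate 3 and lowest in METTL3-KO replicate 3, with overlapping groups. Their log2 fold changes were -0.21 (SE 0.123) and -0.10 (SE 0.0912), and turned to 0.04 and 0.06 without the third replicates. After correction for length and GC content EIF2AK2 was called lower (-0.22, adjusted p = 0.0167 by edgeR), and ADAR was not called in any fit.

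**Figure D2:**
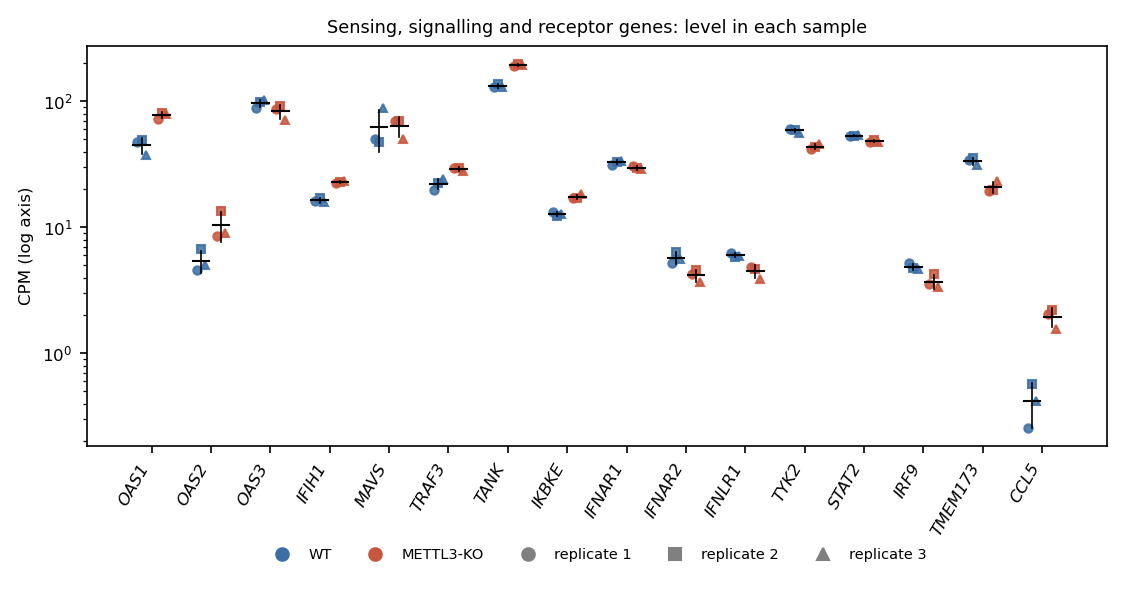
Level in each sample, in CPM on a log axis, of sensors, adaptors, receptor chains, kinases and factors of the pathway, drawn as in the plot of called genes (group means with SD, n = 3). OAS1, OAS2, IFIH1, TRAF3, TANK, IKBKE and CCL5 sit higher in METTL3-KO, IFNAR2, IFNLR1, TYK2 and TMEM173 lower, and the MAVS groups overlap, with the third replicates crossing over.

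The IFITM genes showed the largest falls among the 56. IFITM proteins sit in the plasma and endosomal membranes and hinder the fusion of enveloped viruses, and their genes lie within 25.8 kb of chromosome 11 (303655 to 329475, GRCh37). IFITM2 was at 48.0, 52.6 and 42.2 CPM in WT and 19.5, 18.8 and 19.3 CPM in METTL3-KO samples. IFITM3 was at 37.3, 38.3 and 28.3 CPM in WT and 13.6, 17.4 and 18.4 CPM in METTL3-KO samples. For both genes every METTL3-KO sample was below every WT sample, by 2.48-fold in IFITM2 and 2.11-fold in IFITM3. On the log2 scale IFITM2 fell by 1.31 (SE 0.0935, adjusted p = 2.89e-06) and IFITM3 by 1.08 (SE 0.136, adjusted p = 1.38e-04), edgeR's quasi-likelihood test, and both calls held in all 14 alternative fits.

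IFITM1 was nearly silent, with 27, 41 and 17 counts in WT and 10, 12 and 7 in METTL3-KO samples. The groups did not overlap, and IFITM1 fell by 1.62 in log2 terms (SE 0.394, adjusted p = 0.00951 by edgeR), but without WT replicate 2 the adjusted p was 0.0509 and the fold change -1.20. The coding sequences of the IFITM genes are closely alike. Reads that fit more than 1 place were left out of the counts, so the share of reads given to each of these genes is uncertain. BST2 (tetherin), grouped with them for its place at the membrane, was at 113, 117 and 86.3 CPM in WT and 111, 122 and 136 CPM in METTL3-KO samples. The BST2 groups overlapped, with an adjusted p of 0.191 by edgeR (0.22 on the log2 scale, SE 0.115). BST2 was called higher after correction for length and GC content.

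The genes that attach ISG15 to its targets moved in both directions. UBA7, the activating enzyme that starts the reaction, was at 6.56, 7.65 and 7.60 CPM in WT and 3.75, 4.46 and 4.59 CPM in METTL3-KO samples. HERC5, the ligase that ends it on newly made proteins, had 33, 22 and 25 counts in WT and 86, 61 and 84 in METTL3-KO samples. Neither pair of groups overlapped: UBA7 fell by 0.77 (SE 0.133, adjusted p = 0.0011) and HERC5 rose by 1.45 (SE 0.198, adjusted p = 2.36e-04) on the log2 scale in edgeR's test, the largest rise among the 56, from about 1.12 to 3.07 CPM. HERC6, next to HERC5 on chromosome 4, rose from 9.07, 10.8 and 10.7 CPM to 13.0, 15.2 and 15.0 CPM, by 0.50 (SE 0.111, adjusted p = 0.00557 by edgeR). All 3 calls held in the 14 alternative fits. ISG15 itself was at 72.8, 78.5 and 55.9 CPM in WT and 77.7, 82.7 and 98.9 CPM in METTL3-KO samples. Its groups overlapped through METTL3-KO replicate 1, and its adjusted p was 0.0772 by edgeR and 0.0448 by DESeq2. Without the third replicates its log2 fold change was 0.08, against 0.32 (SE 0.124) with them. ISG15 was called higher by edgeR after correction for length and GC content. USP18, the protease that removes ISG15, was at 0.22 (SE 0.155).

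**Figure D3:**
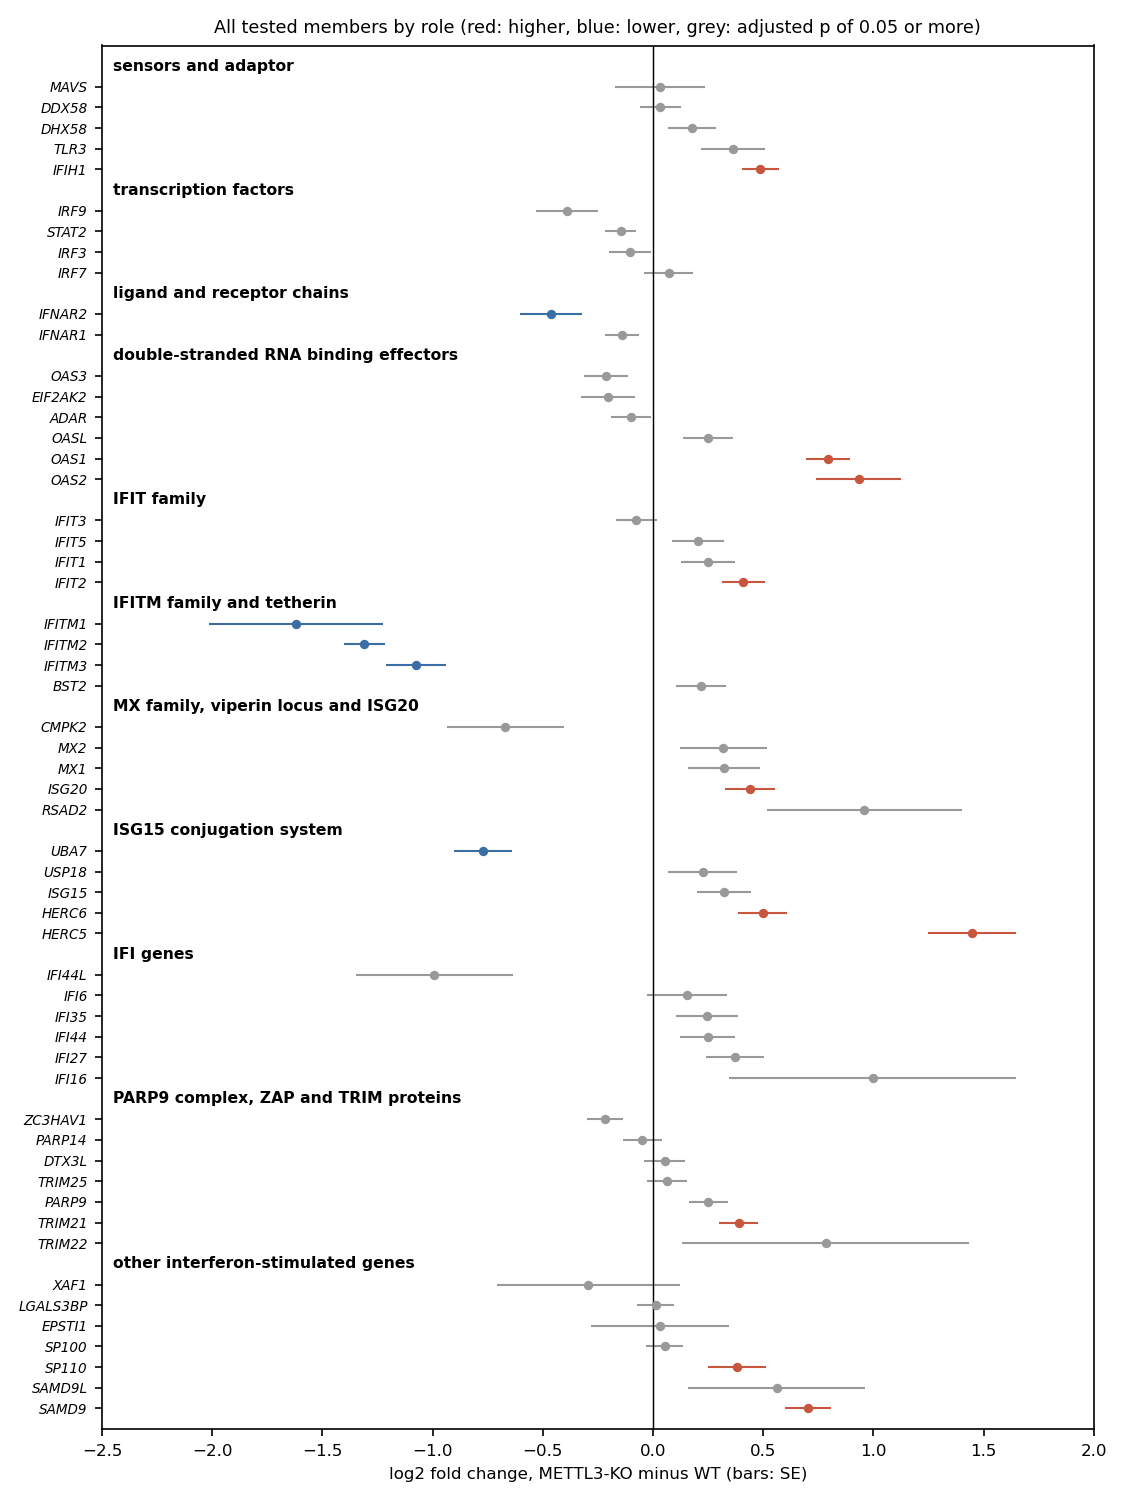
Log2 fold change of METTL3-KO minus WT for the 55 genes tested, grouped by role (horizontal axis, bars are SE). Red marks the 10 genes that rose, blue the 5 that fell and grey those with an adjusted p of 0.05 or more; the IFITM genes reach -1.62 and HERC5 reaches 1.45, while most grey points lie close to 0.

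Among the classical antiviral effectors the values were small. Of the IFIT family, which bind foreign 5′ ends of RNA or each other, IFIT2 rose from 14.5, 13.2 and 15.8 CPM to 20.2, 18.1 and 19.4 CPM. Its groups did not overlap (log2 fold change 0.41, SE 0.0976, adjusted p = 0.0085 by edgeR), while IFIT1 stood at 0.25, IFIT5 at 0.20 and IFIT3 at -0.07, none of which passed. The dynamin-like GTPases MX1 and MX2 stood at 0.32 each (SE 0.161 and 0.199), with overlapping groups, and MX2 was called higher without the third replicates (0.52, adjusted p = 0.0468 by edgeR). ISG20, an RNA exonuclease, rose from 16.9, 20.1 and 14.8 CPM in WT to between 22.9 and 25.5 CPM in 2 METTL3-KO samples and 22.03 in the other, without overlap (0.44, SE 0.114, adjusted p = 0.0132 by edgeR).

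RSAD2 (viperin) was near the floor, at 0.141 to 0.354 CPM in WT, and its neighbour CMPK2 was low, at 0.973 to 1.41 CPM. In both the groups were separated, RSAD2 with METTL3-KO above (0.96, SE 0.442) and CMPK2 with METTL3-KO below (-0.67, SE 0.265), and neither passed the test. Of the 6 IFI genes none passed in either direction. IFI27 was nearest on the higher side (0.37, SE 0.132, adjusted p = 0.0564 by edgeR, and 0.0292 by DESeq2), with 45.6, 53.0 and 36.3 CPM in WT and 50.7, 66.4 and 57.8 CPM in METTL3-KO samples, the groups overlapping through METTL3-KO replicate 1. IFI44L was nearest on the lower side (-0.99, SE 0.356, adjusted p = 0.0595). Without the third replicates IFI27 (0.24, adjusted p = 0.00523) and IFI44 (0.26, adjusted p = 0.0475) were called higher and IFI44L lower (-1.02, adjusted p = 0.0243), all by edgeR. IFI27 and IFI35 were called higher by edgeR after correction for length and GC content. IFI16, a DNA sensor, was almost unexpressed, at no more than 0.182 CPM in any sample.

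PARP9 and DTX3L, which form a complex, share a promoter, and their exons overlap on opposite strands by 2.41% of the DTX3L exon length. PARP9 stood at 0.25 (SE 0.0887, adjusted p = 0.0565) and DTX3L at 0.05 (SE 0.093), and both were called higher without the third replicates (0.26 and 0.20, adjusted p = 3.6e-04 and 0.00118 by edgeR). PARP14 stood at -0.05 and ZC3HAV1 (ZAP, which binds CpG-rich viral RNA) at -0.22 (SE 0.0822, adjusted p = 0.0739 by edgeR). ZC3HAV1 was called lower by edgeR after correction for length and GC content. TRIM21, a cytoplasmic antibody receptor and ubiquitin ligase, rose from 29.2, 31.5 and 26.2 CPM to 37.5, 36.5 and 39.8 CPM without overlap, by 0.39 (SE 0.0877, adjusted p = 0.00609 by edgeR). TRIM25, the ligase that assists RIG-I, stood at 0.06, or 0.20 without the third replicates (adjusted p = 1.25e-04 by edgeR), and TRIM22 was near the floor.

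SAMD9, an antiviral factor that limits translation, rose from 42.2, 43.5 and 51.3 CPM to 80.6, 78.1 and 64.5 CPM. The groups did not overlap, although the third replicates lay closest together, and SAMD9 rose by 0.71 in log2 terms (SE 0.104, adjusted p = 3.93e-04 by edgeR). Its paralogue SAMD9L was under 1.1 CPM in all samples (0.56, SE 0.402), and was called higher without the third replicates (0.97, adjusted p = 0.0408 by edgeR). SP110, a nuclear body protein, was at 14.2, 16.0 and 10.8 CPM in WT and 17.4, 16.9 and 19.3 CPM in METTL3-KO samples. The separation was narrow, the adjusted p was 0.0499 by edgeR, and the call held in 1 of the 6 fits that each left out 1 sample and not without the third replicates (adjusted p = 0.0873). SP100, XAF1 and EPSTI1 did not pass, and neither did LGALS3BP, at 879, 893 and 745 CPM in WT and 819, 814 and 906 CPM in METTL3-KO samples (0.01, SE 0.0832). Without the third replicates LGALS3BP was called lower (-0.12, adjusted p = 0.00359 by edgeR).

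Of the 56 genes, 25 lie in 10 chromosomal groups whose neighbours are within 150 kb. Called genes were found in 6 of the 10 groups, and in none of them did a gene that rose lie beside one that fell. Every gene of the group was called in 2 cases: the 3 IFITM genes fell, and HERC5 and HERC6 rose. In the other 4, called and uncalled genes were mixed, as in the OAS genes, where the middle gene stood apart, and the IFIT genes, where 1 of 4 rose. With 15 genes called in all this is a description of few cases.

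**Figure D4:**
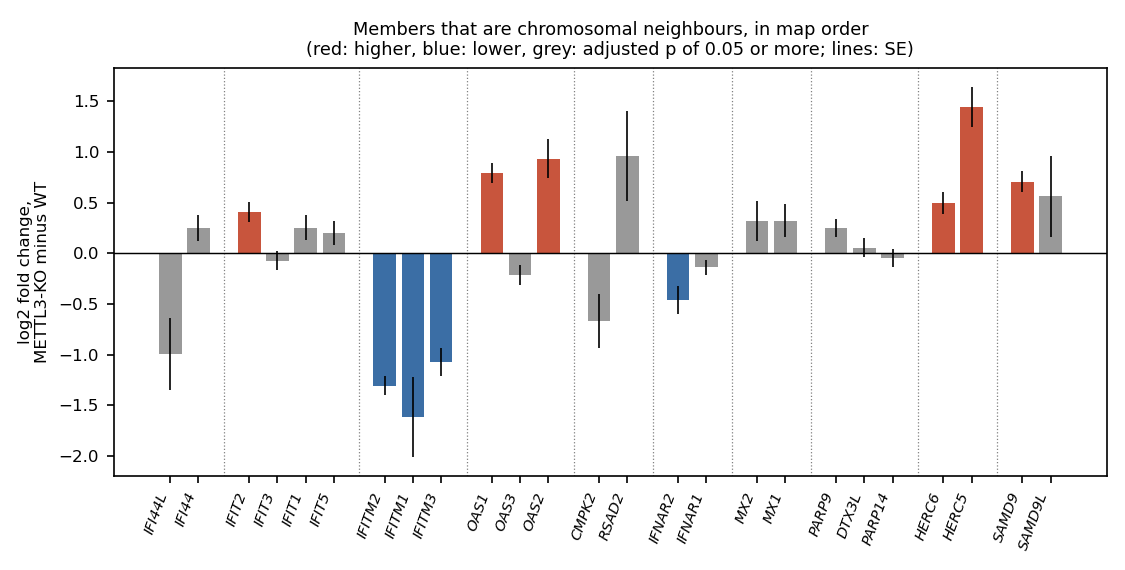
Log2 fold change of METTL3-KO minus WT (vertical axis, lines are SE) for the 25 genes that are chromosomal neighbours, in map order within each of the 10 groups separated by dotted lines. The IFITM bars all point down and the HERC bars up, while OAS3 lies below 0 between OAS1 and OAS2.

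Further genes of the pathway were counted from a list of 57 partners, of which 51 were tested, 10 rose (19.6%) and 5 fell (9.80%), beside 13.3% and 13.2% of all genes tested. Of the 8 kinases and adaptors below the sensors, 3 rose and none fell. TANK, a scaffold for TBK1, was at 130, 137 and 131 CPM in WT and 192, 199 and 194 CPM in METTL3-KO samples (0.56, SE 0.0667, adjusted p = 9.52e-05 by edgeR). IKBKE (IKKε) rose by 0.45 (SE 0.0894) and TRAF3 by 0.40 (SE 0.0917), and TBK1 itself stood at 0.19 (SE 0.0742, adjusted p = 0.0779). For all of these the METTL3-KO samples lay above the WT samples. TBK1 was called higher by edgeR without the third replicates, and also after correction for length and GC content.

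Among the receptor kinases and STATs, TYK2, the kinase of IFNAR1, fell by 0.43 (SE 0.0748, adjusted p = 0.00114 by edgeR) and STAT3 rose by 0.37 (SE 0.0679). TMEM173 (STING, the adaptor of cytoplasmic DNA sensing) fell from 34.1, 35.3 and 31.3 CPM in WT to between 19.4 and 23.2 CPM in METTL3-KO samples, by 0.69 (SE 0.0938, adjusted p = 2.29e-04 by edgeR), while its upstream enzyme MB21D1 (cGAS) stood at 0.15 (SE 0.115). IFNLR1, the specific chain of the interferon lambda receptor, fell by 0.42 (SE 0.13, adjusted p = 0.0333 by edgeR), a call kept in 1 of the 6 fits that each left out 1 sample (that without WT replicate 3) and not by DESeq2 (adjusted p = 0.0736).

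Of the 4 interferon-induced chemokines, 1 rose. CCL5 had 7, 13 and 9 counts in WT and 62, 49 and 37 in METTL3-KO samples, 4.74-fold higher (log2 fold change 2.24, SE 0.306, adjusted p = 2.29e-04 by edgeR). CXCL10, the chemokine most used as a readout of interferon, was at 0.141 to 0.531 CPM in WT and 0.0995 to 0.255 CPM in METTL3-KO samples (-1.05, SE 0.601), and CXCL9 and CXCL11 did not pass either. Without the third replicates CXCL10 was called lower by edgeR (-1.83 on the log2 scale). Targets shared with interferon gamma included a fall of TAP1, the peptide transporter, by 0.44 (SE 0.122, adjusted p = 0.0186 by edgeR), and rises of IRF2 (0.31, SE 0.0941, adjusted p = 0.0301) and GBP2 (0.28, SE 0.0907, adjusted p = 0.0386). Of the negative regulators PTPN1 rose by 0.38 (SE 0.0683) and RNF125, which marks RIG-I for degradation, fell by 0.44 (SE 0.128, adjusted p = 0.0244 by edgeR). MYD88, the adaptor of the endosomal receptors for single-stranded RNA and CpG DNA, rose by 0.22 (SE 0.0732, adjusted p = 0.0412 by edgeR), whereas TLR7 had no count in any sample and TLR8 at most 2. Of the 6 fits that each left out 1 sample, the calls of TAP1, IRF2, RNF125 and MYD88 were each kept in 2 and that of GBP2 in 3. The fit without WT replicate 3 kept all 5 of them. TAP1 and RNF125 were otherwise kept without METTL3-KO replicate 2, IRF2 without WT replicate 1, MYD88 without WT replicate 2, and GBP2 without WT replicate 1 or METTL3-KO replicate 1.

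Several calls turned on the third replicates. Across the 55 genes tested, WT replicate 3 held the lowest value of the 6 samples for 23 and the highest for 12. METTL3-KO replicate 2 held the highest for 18 and the lowest for 1. MAVS, IRF3, TLR3 and TRIM25, among others, were called without the third replicates and not with them, and SP110 the reverse. Calls gained in that fit rest on the closest pair of each group, as said above. IFIH1, OAS1, OAS2, IFIT2, HERC5, HERC6, TRIM21, SAMD9, IFITM2, IFITM3 and UBA7 were called in the same direction in every alternative fit run.

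**Figure D5:**
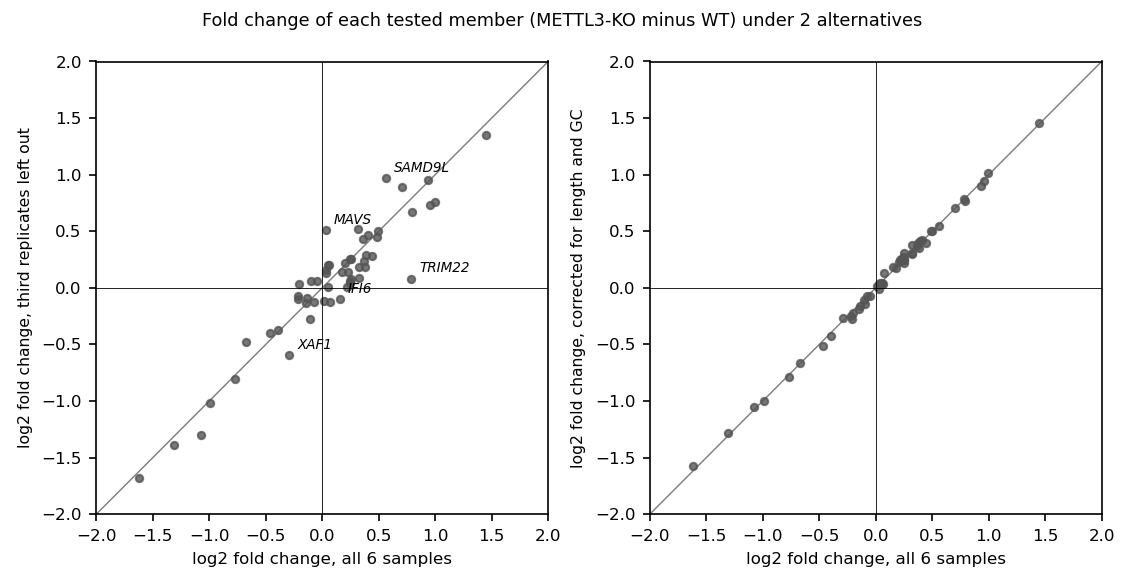
Log2 fold change of each tested gene with all 6 samples (horizontal axes) against the value without the third replicates (left) or after correction for transcript length and GC content (right); the grey line marks equal values. The 5 genes that moved most are named on the left, among them MAVS (0.03 to 0.51), while the corrected values on the right stay close to the line.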

How the data were processed

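RNA-seq of 3 WT and 3 METTL3-KO samples of HCT116 cells was analysed, and no sample was left out of the main comparison. The authors isolated total RNA with Trizol, prepared libraries with an Illumina TruSeq kit, aligned the reads to hg19 with TopHat2 2.0.11 using an Ensembl GRCh37 index, and counted with htseq-count in union mode (HTSeq version and strand setting not given in the sources used here). The tables deposited by the authors give, for each gene symbol, raw counts without normalization. Reads with more than 1 alignment or more than 1 gene are not in them, and 28.2% to 30.7% of the read pairs of a sample were set aside as unassigned. Antisense or overlapping genes may therefore share or lose reads.

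A gene was dropped if its counts summed to under 5 in each of the conditions, a minimum taken from the study's methods. All others were fitted with edgeR 4.0.16 in R 4.3.3 (TMM, quasi-likelihood test, two-sided, Benjamini-Hochberg adjustment). The SE is the log2 fold change divided by the square root of F. The study used DESeq2, which was run as an alternative (1.42.0). Other alternatives were RLE normalization, 2 filters, leaving out each sample or the third replicate of both groups, the replicate number as a block, and offsets for transcript length and GC content (splines with 5 degrees of freedom). The 56 genes and the partner and marker lists were chosen with earlier results of these data known. Named genes were METTL3, all sensors, factors, receptor chains and double-stranded RNA binders, and up to 4 called genes of each other group, or up to 3 of each partner list; other genes were named after their values were seen. Positions came from GENCODE v44lift37 on GRCh37, which matched 35360 symbols, and promoter windows from RefSeq. Lengths for levels per kb are exon unions. The floors in CPM cover counting error only, whereas the SE also includes the spread between samples. On simulated data with 200 of 21756 genes changed by 1 on the log2 scale, edgeR called 194 of them and 8 others. With a length trend of opposite sign added to the third replicates, edgeR called 174 of 200 and 0 others. With the correction for length and GC content it then called 193 and 10 others. Values of 2 partner genes, which are counted in the list's totals, are not reported here.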

Additional observations from a re-analysis of the deposited data

How the results depend on the processing

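The direction and call of 44 named genes were compared across the alternatives. RLE normalization, the filterByExpr filter and no filter changed none of these calls, and DESeq2 ended 2 (IFNAR2 and IFNLR1). Over all 56, no filter gave 15 higher and 6 lower (adding BST2, MX1, ISG15, IFI27, PARP9 and IFI44L), filterByExpr 11 and 5, and DESeq2 13 and 4. Among all genes tested, no filter gave 3425 higher and 3339 lower of 30323. The filterByExpr filter gave 3053 and 2982 of 16124 genes, and DESeq2 2908 and 2700 of 22452. Leaving out the third replicate of both groups raised the genes called to 18 higher and 9 lower of the 56, to 16 higher and 12 lower of the partners, and to 4555 higher and 4823 lower of all genes, and lowered the median of the 56 to 0.083. It turned IRF7 to -0.12, EIF2AK2 to 0.038 and ADAR to 0.059. Correction for length and GC content gave 14 higher and 10 lower of the 56, and 16 higher and 7 lower of the partners. Over all genes it gave 3813 higher and 3770 lower, and it turned MAVS to -0.012. Of the 56 it added OASL, BST2, ISG15, IFI27 and IFI35 as higher and IRF9, STAT2, EIF2AK2, OAS3 and ZC3HAV1 as lower. SP110 lost its call. Together with the block the correction gave 12 higher and 8 lower of the 56, and 2991 higher and 2873 lower of all genes. Leaving out 1 sample at a time gave 3 to 8 lower of the 56 (3 without WT replicate 2, 8 without WT replicate 3). These fits gave 9 to 15 higher of the 56 (15 without WT replicate 2). Of the partners 7 to 15 were higher and 2 to 7 lower (2 without WT replicate 1 or 2 or METTL3-KO replicate 1 or 3). Over all genes 2188 to 3809 were higher and 1976 to 3793 lower, both highest without WT replicate 3. The range in log2 terms was -0.0044 to 0.11 for DDX58, -0.11 to 0.37 for MAVS and -0.045 to 0.16 for IRF7, each turning sign. The cause of these changes was not tested.

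The replicate numbers do not pair the samples: deviations of same-numbered samples correlated at -0.586, -0.390 and -0.784, and no sample correlated best with its own number. With the replicate number as a block, 8 of the 56 were higher and 4 lower, and 7 partners were higher and 2 lower. Over all genes 1810 were higher and 1719 lower. SP110, ISG20 and IFNAR2 lost their calls, as did MYD88, IFNLR1, TAP1, IRF2, GBP2 and RNF125. Depth limited the low genes: the SE was 0.651 on the log2 scale for IFI16 and TRIM22 and 0.442 for RSAD2, against 0.0697 to 0.205 for the genes with a WT mean of at least 10 CPM.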
